A study of Homo sapiens with 21 samples.

Results

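The BCL2 family members that open the mitochondrial outer membrane, the effectors BAX, BAK1 and BOK, and the guardians that hold them back, MCL1, BCL2L1, BCL2L2 and BCL2, were followed in hTERT-HPNE cells under 2 kinds of stress. The genes were taken by symbol from a table of rLog values, and all 7 were found among the 23368 genes listed and the 19694 genes whose values varied and were tested. An rLog value is a log2 expression value whose differences have been shrunk towards 0, most strongly for genes with few reads. hTERT-HPNE is a nontransformed pancreatic line immortalized with telomerase, and RNA was taken from untreated cells and at 4, 8 and 24 h after addition of 300 µM H2O2, an oxidant, or 400 ng/ml neocarzinostatin (NCS), which cuts DNA as ionizing radiation does. Each of the 7 groups held 3 biological replicates, 21 libraries in all, from 1 cell line. The 3 untreated libraries were taken at 0 h and served both treatments, so treatment and time in fresh medium cannot be told apart in any comparison with them. The same holds for steps between times within 1 treatment.

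Mitochondrial apoptosis turns on protein contacts within this family. When activated, BAX and BAK1 assemble into pores in the outer membrane and release cytochrome c, and BOK is a related effector that is controlled largely through its stability. MCL1, BCL-xL (the anti-apoptotic product of BCL2L1), BCL-w (BCL2L2) and BCL2 bind the effectors and the BH3-only proteins that trigger them, and PMAIP1 (NOXA) binds MCL1 most tightly. BAX and BAK1 are known p53 targets, and MCL1 is known for a very short-lived mRNA and protein. Transcript levels do not show protein activity.

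The line's labelled identity was checked against marker genes. Nestin (NES, mean rLog value 12.0), vimentin (VIM, 17.0), KRT18 (11.6) and KRT8 (7.93) were expressed, whereas the duct keratin KRT19 was near absent (0.60). Over the libraries as a whole, the means of 5 acinar markers lay between -2.31 and 0.48, of 4 islet markers between -2.18 and 0, of 2 leukocyte markers between 0 and 0.93 and of 2 endothelial markers between -2.04 and 2.11, with PRSS1, CELA3A, INS and CD3E at 0 in every library. Median rLog values of the 21 libraries spanned 7.14 to 7.19. Replicate 2 of H2O2 at 8 h stood somewhat apart from its group, at distances of 14.7 and 15.1 from its 2 partners over all tested genes, against 8.94 to 11.4 for the 19 other pairs within groups, and the results that rest on that group were computed again without it. No read counts were used, so depth is unknown and no counting error can be given.

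BAX and BAK1, the effectors that were higher than in untreated cells in every treated group, are shown with the DNA just upstream of their starts. The window was the 250 bases before the RefSeq start on GRCh38.p14, of which the part lying outside the GENCODE gene is printed. RefSeq windows were found for 5 of the 7 genes (BAX, BAK1, BOK, BCL2 and BCL2L1). Capitals mark CACGTG, the E-box read by basic helix-loop-helix factors, in BAX (chr19:48954625-48954814, plus strand, ending 60 bases before the start) and the match to the p53 half-site consensus in BAK1 (chr6:33580294-33580526, minus strand, ending 17 bases before the start).
BAX: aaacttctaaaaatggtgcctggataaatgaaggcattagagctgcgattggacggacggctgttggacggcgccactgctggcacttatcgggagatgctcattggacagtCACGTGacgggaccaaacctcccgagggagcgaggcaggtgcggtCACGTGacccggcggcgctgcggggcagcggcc
BAK1: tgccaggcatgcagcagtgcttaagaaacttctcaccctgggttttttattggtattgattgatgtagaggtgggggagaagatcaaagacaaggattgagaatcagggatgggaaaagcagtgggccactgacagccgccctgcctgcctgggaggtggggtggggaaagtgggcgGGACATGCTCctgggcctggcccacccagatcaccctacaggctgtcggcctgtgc

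The BAX window held CACGTG 4 times, with first bases 138, 93, 45 and 14 bases before the start. The copies at 45 and 14 lie inside the GENCODE gene and so are not in the printed stretch. At least 1 CACGTG was present in 6.34% of 35116 RefSeq windows of the same length, and 4 or more in 5 windows (0.0142%), a count made after the copies had been seen. The BAK1 window held 1 match to the p53 half-site, 73 bases before the start, as did 5.57% of all windows at least once. No match to the p53 half-site was found in the BAX window. Neither motif was found in the BOK, BCL2 or BCL2L1 windows, and the AP-1 sequence TGANTCA, present in 6.57% of windows, was found in none of the 5 genes. The BOK and BCL2 windows, and the second of the BCL2L1 windows, lie wholly inside the GENCODE gene, so they are not sequence upstream of its outermost start. All 3 motifs read the same on both strands. The match in BAK1 is a description of the letters and not a measured binding site.

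The 7 genes differed widely in level before treatment. Per kb of exon sequence (GENCODE v29, GRCh38), untreated levels on the log2 scale were 11.55 for BCL2L1, 10.96 for MCL1, 9.90 for BAX, 9.22 for BOK, 8.71 for BAK1, 8.60 for BCL2L2 and 1.50 for BCL2. Thus BCL2L1 and MCL1 transcripts were the most abundant guardians and BCL2, whose exons span 11765 bases, was by far the scarcest of the 7. BAX lies at chromosome 19, 48954815 to 48961798 (plus strand), and BAK1 at chromosome 6, 33572547 to 33580293 (minus strand). BOK lies at chromosome 2, 241551424 to 241574138 (plus), MCL1 at chromosome 1, 150574551 to 150579738 (minus), and BCL2L1 at chromosome 20, 31664452 to 31723989 (minus). BCL2L2 lies at chromosome 14, 23298790 to 23311759 (plus), and BCL2 at chromosome 18, 63123346 to 63320128 (minus). The value of each is a sum over the exons of its gene, so long and short splice forms, including the anti-apoptotic and pro-apoptotic forms of BCL2L1 and MCL1, were not separated. Noncoding genes on the same strand also overlap MCL1 (ADAMTSL4-AS1) and BCL2 (AC022726.1) in this annotation and were not analysed here.

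**Figure D1:**
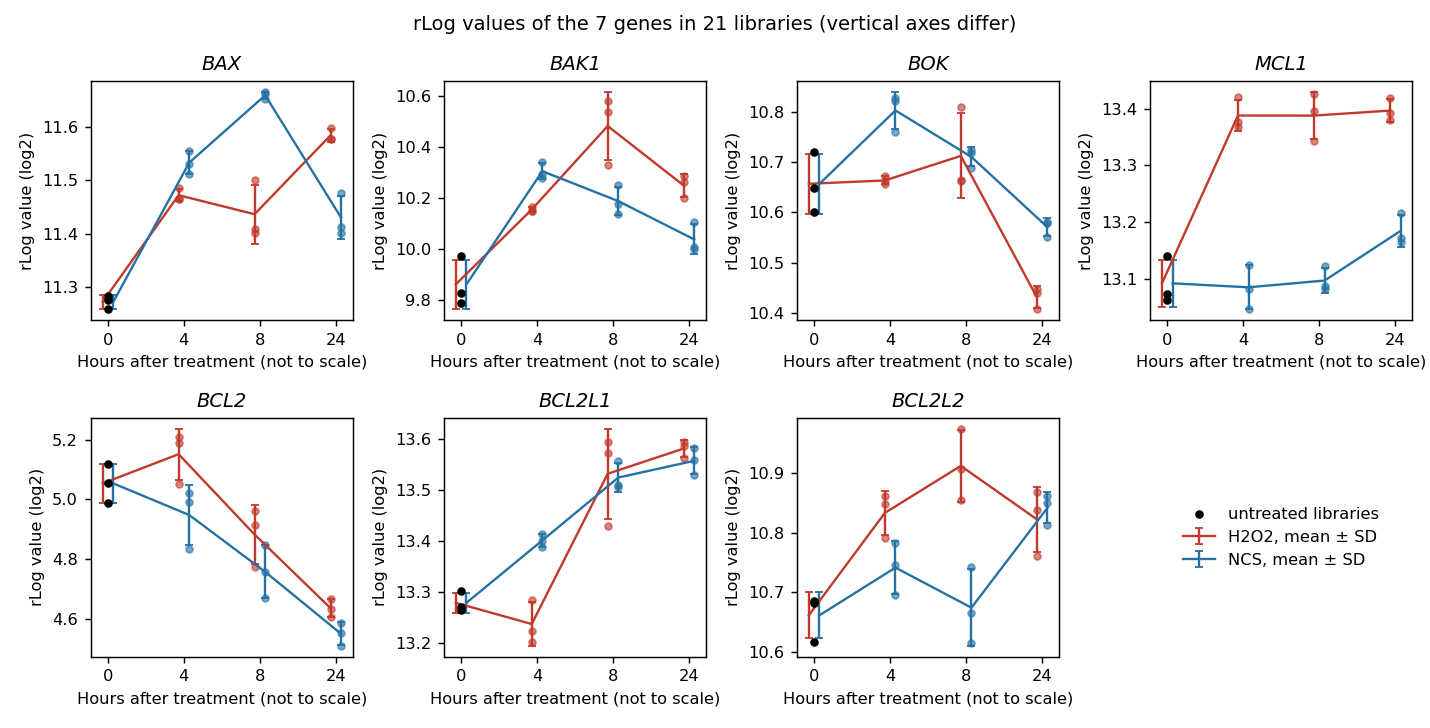
rLog values (log2, vertical axes differ between panels) of the 7 genes against hours after treatment (categories, not to scale), with black points for untreated libraries, red for H2O2, blue for NCS, and lines with bars for the mean ± SD of 3 libraries. MCL1 stood near 13.39 in all H2O2 groups and near 13.09 in untreated cells and in NCS at 4 and 8 h, BAX peaked in NCS at 8 h (11.66) and BAK1 in H2O2 at 8 h (10.48), and BCL2 was lowest at 24 h.

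Most of the 7 genes differed from untreated cells in both treatments, by small steps. Against untreated cells, limma with Benjamini-Hochberg adjustment over all tested genes called 4 of 7 in H2O2 at 4 h, where 45.9% of all genes were called, 6 of 7 at 8 h (37.4% of all genes) and 7 of 7 at 24 h (40.0%). In NCS it called 4 of 7 at 4 h (17.2% of all genes), 4 of 7 at 8 h (23.9%) and 6 of 7 at 24 h (38.0%). The median size of the difference, regardless of sign, was 0.17, 0.25 and 0.30 for the 7 genes in H2O2 at 4, 8 and 24 h, against 0.08, 0.06 and 0.07 over all tested genes. In NCS it was 0.12, 0.25 and 0.18 for the 7 genes against 0.04, 0.04 and 0.07 over all genes. Among these differences, the one with a size above 0.58 was BAK1 in H2O2 at 8 h, a limit passed together with the test by 2.91%, 2.44% and 4.56% of all genes in H2O2 and by 1.00%, 1.29% and 3.97% in NCS at 4, 8 and 24 h. The all-gene shares and medians include scarce genes, whose differences rLog shrinks most. Of the 19694 genes tested, 11681 had a mean value of 5 or more, as had all of the 7 but BCL2. How far expression level enters the gap between the 7 and all genes was not tested. With 3 libraries against 3, a two-sided exact permutation test of a single gene cannot go below p = 0.1, which it gave for every pair of groups that did not overlap. In bulk RNA, a change in every cell and a change in the number of cells with a given level cannot be told apart.

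BAX rose in all 6 treated groups. Its rLog values were 11.26, 11.28 and 11.28 in untreated cells, 11.47, 11.47 and 11.49 in H2O2 at 4 h, then 11.40, 11.41 and 11.50 at 8 h and finally 11.58, 11.58 and 11.60 at 24 h. In NCS they were 11.56, 11.53 and 11.51 at 4 h, then 11.65, 11.66 and 11.66 at 8 h and finally 11.40, 11.41 and 11.48 at 24 h. No treated library of BAX reached down to the untreated range. The differences from untreated cells were 0.20, 0.16 and 0.31 in H2O2 at 4, 8 and 24 h (SE 0.02; adjusted p = 1.94e-06, 2.24e-05 and 3.82e-09). In NCS they were 0.26, 0.39 and 0.16 (SE 0.02; adjusted p = 3.33e-07, 1.11e-09 and 2.88e-05). BAX thus took opposite courses after 8 h in the 2 stresses. In NCS it gained 0.13 from 4 to 8 h (adjusted p = 0.00136) and then fell by 0.23 to 24 h (adjusted p = 5.72e-07), whereas in H2O2 the step from 4 to 8 h was -0.04 (95% interval -0.09 to 0.02, adjusted p = 0.253) and the step from 8 to 24 h was a rise of 0.15 (adjusted p = 5.76e-05). In order, BAX was highest in NCS at 8 h, then H2O2 at 24 h, then NCS at 4 h, with no overlap between these neighbours, while H2O2 at 4 h, H2O2 at 8 h and NCS at 24 h overlapped in turn and stood above untreated cells. Without replicate 2, the H2O2 difference at 8 h was 0.18. Leaving out H2O2 8 h replicate 3 instead turned the H2O2 step from 4 to 8 h into a call, at -0.07 (adjusted p = 0.0158, against 0.0158 to 0.634 over all settings tried).

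BAK1 also rose in all 6 treated groups, with its peak in H2O2 at 8 h. Its values were 9.79, 9.82 and 9.97 in untreated cells, 10.15, 10.16 and 10.15 in H2O2 at 4 h, then 10.53, 10.33 and 10.58 at 8 h and finally 10.20, 10.26 and 10.28 at 24 h. With NCS they were 10.34, 10.28 and 10.29 at 4 h, then 10.17, 10.14 and 10.25 at 8 h and finally 10.01, 10.00 and 10.10 at 24 h. All treated libraries lay above the highest untreated one. In H2O2 the differences were 0.29, 0.62 and 0.39 (SE 0.06; adjusted p = 0.000241, 5.96e-08 and 1.09e-05), so that at 8 h BAK1 was 1.54-fold the untreated value and 1.13% of all tested genes had a higher difference. In NCS they were 0.44, 0.33 and 0.18 (SE 0.06; adjusted p = 1.06e-05, 0.000178 and 0.0155). In H2O2, BAK1 thus gained a further 0.33 between 4 and 8 h (adjusted p = 8.23e-05) and lost 0.23 between 8 and 24 h (adjusted p = 0.00191). With NCS the highest value came at 4 h. Between NCS at 4 and 8 h the step was -0.12 (adjusted p = 0.203), and from 8 to 24 h BAK1 fell by 0.15 (adjusted p = 0.0471). Neighbours in the order of levels overlapped from H2O2 at 8 h through NCS at 4 h, H2O2 at 24 h and NCS at 8 h to H2O2 at 4 h, and only NCS at 24 h and untreated cells stood clear below. Replicate 2 of H2O2 at 8 h was the lowest of its group, and without it the 8 h difference was 0.70 (adjusted p = 2.05e-09). The NCS call at 24 h was lost without NCS 24 h replicate 3, untreated replicate 1 or untreated replicate 2 (adjusted p = 0.0827, 0.0862 and 0.0606, against 0.00297 to 0.0862 over all settings), and the NCS fall from 8 to 24 h without any of 4 of its 6 libraries (NCS 8 h replicates 1 and 3 and NCS 24 h replicates 1 and 2; 0.0129 to 0.184 over all settings).

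BOK followed another course, with a rise in NCS at 4 h and a fall in H2O2 at 24 h. BOK read 10.60, 10.65 and 10.72 in untreated cells, 10.67, 10.66 and 10.66 in H2O2 at 4 h, then 10.66, 10.67 and 10.81 at 8 h and finally 10.44, 10.45 and 10.41 at 24 h. Under NCS the libraries read 10.82, 10.83 and 10.76 at 4 h, then 10.72, 10.69 and 10.73 at 8 h and finally 10.58, 10.55 and 10.58 at 24 h. H2O2 groups at 4 and 8 h overlapped the untreated libraries, and both 24 h groups lay below them. The H2O2 differences were 0.0067 at 4 h (95% interval -0.07 to 0.08, adjusted p = 0.940) and 0.06 at 8 h (-0.02 to 0.13, adjusted p = 0.244), and at 24 h BOK fell by 0.23 (SE 0.03, adjusted p = 2.72e-05). In NCS it rose by 0.15 at 4 h (SE 0.03, adjusted p = 0.00564), while the later differences, 0.05 at 8 h and -0.09 at 24 h, missed the limit (adjusted p = 0.337 and 0.0589). Within each treatment BOK fell from 8 to 24 h, by 0.28 after H2O2 (adjusted p = 2.36e-06) and by 0.14 after NCS (adjusted p = 0.00423). NCS at 4 h, H2O2 at 8 h and NCS at 8 h overlapped at the top of the order, H2O2 at 4 h overlapped untreated cells, and the 2 groups at 24 h stood apart at the bottom. The antisense gene BOK-AS1 overlaps BOK and had a mean rLog value of 1.02. The 24 h difference in NCS became a call without untreated replicate 1 (-0.11, adjusted p = 0.0210, against 0.0210 to 0.408 over all settings). A filter at mean value 5 also made it a call (adjusted p = 0.0327).

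**Figure D2:**
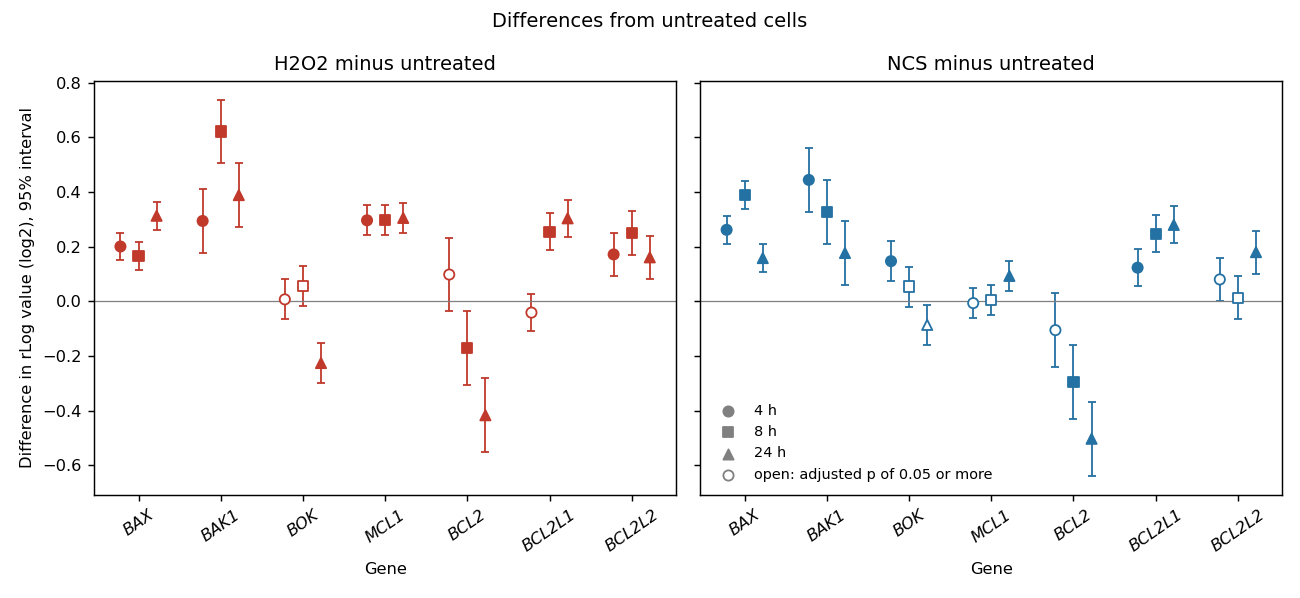
Difference in rLog value (log2) between each treated group and untreated cells for the 7 genes, with 95% intervals from limma. Filled symbols passed an adjusted p of 0.05 and open symbols did not. BAX and BAK1 lay above 0 in all 6 groups, MCL1 lay at about 0.30 in each H2O2 group, and BCL2 lay lowest of the 7 at 24 h in both treatments (-0.42 and -0.50).

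MCL1 was higher in H2O2 at every time than in untreated or NCS-treated cells. MCL1 read 13.14, 13.07 and 13.06 in untreated cells, 13.42, 13.37 and 13.38 in H2O2 at 4 h, then 13.42, 13.34 and 13.40 at 8 h and finally 13.39, 13.38 and 13.42 at 24 h. The NCS libraries read 13.05, 13.08 and 13.12 at 4 h, then 13.12, 13.09 and 13.08 at 8 h and finally 13.22, 13.17 and 13.16 at 24 h. Every H2O2 library lay above every NCS and untreated library. In H2O2 the difference from untreated cells was 0.30 at each of the 3 times (SE 0.03; adjusted p = 4.03e-08, 5.81e-08 and 1.65e-08). The steps between the H2O2 groups were -0.00011 (95% interval -0.06 to 0.05, adjusted p = 0.998) and 0.0088 (-0.05 to 0.06, adjusted p = 0.869), so any change between them was under 0.07 by these intervals. In NCS the differences were -0.0070 at 4 h (-0.06 to 0.05, adjusted p = 0.972) and 0.0050 at 8 h (-0.05 to 0.06, adjusted p = 1.00), and at 24 h MCL1 rose by 0.09 (SE 0.03, adjusted p = 0.00815). The NCS rise of 0.09 between 8 and 24 h (adjusted p = 0.0154) was no longer called without NCS 24 h replicate 1, NCS 8 h replicate 2 or NCS 8 h replicate 3 (adjusted p = 0.0824, 0.0533 and 0.0595, against 0.000543 to 0.0902 over all settings). The 3 H2O2 groups overlapped one another, and untreated cells overlapped NCS at 4 and at 8 h.

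BCL2L1, which encodes BCL-xL, was higher at 8 and 24 h in both treatments and, in NCS, already at 4 h. BCL2L1 stood at 13.27, 13.26 and 13.30 in untreated cells, 13.22, 13.20 and 13.29 in H2O2 at 4 h, then 13.57, 13.43 and 13.59 at 8 h and finally 13.56, 13.59 and 13.59 at 24 h. NCS libraries gave 13.41, 13.39 and 13.40 at 4 h, then 13.51, 13.51 and 13.56 at 8 h and finally 13.53, 13.56 and 13.58 at 24 h. At 4 h the NCS libraries were above the untreated range and the H2O2 libraries overlapped it. In H2O2 the difference was -0.04 at 4 h (95% interval -0.11 to 0.03, adjusted p = 0.323), which under quantile normalization became a call at -0.088 (adjusted p = 0.00927, against 0.00927 to 0.655 over all settings), and BCL2L1 then rose to 0.25 at 8 h and 0.30 at 24 h above untreated cells (SE 0.03; adjusted p = 4.23e-06 and 2.87e-07). In NCS it had risen by 0.12 at 4 h, 0.25 at 8 h and 0.28 at 24 h (SE 0.03; adjusted p = 0.0116, 1.10e-05 and 9.27e-07). By 8 h the treatments met: the H2O2 minus NCS difference was 0.0074 (-0.06 to 0.08), and 0.02 at 24 h (-0.04 to 0.09). All 4 groups at 8 and 24 h overlapped in turn at the top of the order, followed by NCS at 4 h, and then by untreated cells and H2O2 at 4 h, which overlapped. Replicate 2 of H2O2 at 8 h was again the lowest of its group. Without it the 8 h difference from untreated cells was 0.30 and the difference from NCS 0.06 (adjusted p = 0.0654, against 0.0654 to 0.998 over the libraries left out). The NCS gain of 0.12 from 4 to 8 h (adjusted p = 0.0138) was lost without NCS 4 h replicate 2 or NCS 8 h replicate 3 (adjusted p = 0.0544 and 0.0691, against 0.000287 to 0.0691 over all settings).

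BCL2L2, which encodes BCL-w, passed the test as higher in H2O2 at every time and in NCS at 24 h. BCL2L2 read 10.69, 10.62 and 10.68 in untreated cells, 10.79, 10.86 and 10.85 in H2O2 at 4 h, then 10.91, 10.85 and 10.97 at 8 h and finally 10.76, 10.84 and 10.87 at 24 h. For NCS they stood at 10.78, 10.75 and 10.70 at 4 h, then 10.62, 10.67 and 10.74 at 8 h and finally 10.85, 10.81 and 10.86 at 24 h. The untreated libraries overlapped NCS at 8 h but none of the H2O2 groups. The differences were 0.17, 0.25 and 0.16 in H2O2 (SE 0.04; adjusted p = 0.00102, 2.85e-05 and 0.00177). In NCS they were 0.08 at 4 h (95% interval 0.00 to 0.16, adjusted p = 0.183), 0.01 at 8 h (-0.07 to 0.09, adjusted p = 0.967) and a rise of 0.18 at 24 h (SE 0.04, adjusted p = 0.000707). The NCS rise came between 8 and 24 h (0.17, adjusted p = 0.00193). Each group in the order of BCL2L2 levels overlapped the next, from H2O2 at 8 h down to untreated cells. The BCL2L2 values are uncertain, because the read-through gene BCL2L2-PABPN1 shares its exons on the same strand and was listed at 0 in every library, and HOMEZ and PPP1R3E (mean rLog values 7.50 and 6.44) overlap it on the other strand. Without H2O2 8 h replicate 2, both H2O2 steps became calls (0.11 from 4 to 8 h, adjusted p = 0.0369, and -0.12 from 8 to 24 h, adjusted p = 0.0231). The adjusted p of the first ranged from 0.0369 to 0.368 over all settings and that of the second from 0.0231 to 0.286. The second was also called without H2O2 24 h replicate 3 (0.0408), with aligned medians (0.0250) and with a filter at mean value 5 (0.0331).

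BCL2 itself, present at a low level, declined with time in both treatments. BCL2 stood at 5.12, 5.06 and 4.99 in untreated cells, 5.05, 5.21 and 5.19 in H2O2 at 4 h, then 4.91, 4.96 and 4.77 at 8 h and finally 4.63, 4.61 and 4.67 at 24 h. NCS gave 4.99, 4.83 and 5.02 at 4 h, then 4.76, 4.85 and 4.67 at 8 h and finally 4.59, 4.55 and 4.51 at 24 h. Both 4 h groups overlapped untreated cells and all libraries at 8 and 24 h lay below them. In H2O2 the difference was 0.10 at 4 h (95% interval -0.04 to 0.23, adjusted p = 0.237), and BCL2 fell by 0.17 at 8 h and by 0.42 at 24 h (SE 0.06; adjusted p = 0.0440 and 2.79e-05). In NCS it was -0.11 at 4 h (-0.24 to 0.03, adjusted p = 0.337), and BCL2 fell by 0.30 at 8 h and by 0.50 at 24 h (SE 0.06; adjusted p = 0.00189 and 3.29e-06). From 8 to 24 h it fell by 0.25 in H2O2 (adjusted p = 0.00414) and dropped by 0.21 in NCS (adjusted p = 0.0190). Neighbouring groups overlapped from H2O2 at 4 h down to NCS at 8 h, and the 24 h groups were lowest without overlap. The H2O2 call at 8 h was lost without H2O2 8 h replicate 1 or 3 or untreated replicate 1 or 2 (adjusted p = 0.0615, 0.223, 0.161 and 0.0902, against 0.0185 to 0.223 over all settings). The NCS fall from 8 to 24 h was lost without NCS 8 h replicate 2 or NCS 24 h replicate 3 (adjusted p = 0.103 and 0.0701, against 0.0116 to 0.103). The NCS step from 4 to 8 h, -0.19 (adjusted p = 0.0588), became a call without NCS 4 h replicate 2 or NCS 8 h replicate 2 (0.0236 and 0.0387, against 0.0211 to 0.236). Aligned medians also made it a call (adjusted p = 0.0211). Shrinkage of rLog differences is strongest for scarce transcripts, and BCL2 was the scarcest of the 7.

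The difference between the stresses at one time was taken next, to ask whether oxidant and DNA breaks set the same balance of effectors and guardians. At 24 h, H2O2 cells had more BAX, BAK1 and MCL1 transcript than NCS cells and less BOK, and BCL2, BCL2L1 and BCL2L2 did not pass the test. The H2O2 minus NCS differences at 24 h were 0.15 for BAX (adjusted p = 0.000109), 0.21 for BAK1 (0.00879), 0.21 for MCL1 (8.16e-06) and -0.14 for BOK (0.00649), and 0.09 (95% interval -0.05 to 0.22) for BCL2, 0.02 (-0.04 to 0.09) for BCL2L1 and -0.02 (-0.10 to 0.06) for BCL2L2. These 4 calls of 7 compare with 21.9% of all genes. At 4 h limma called 6 of 7 (44.4% of all genes) and at 8 h 4 of 7 (34.1%). BCL2L1 and BOK were lower in H2O2 than in NCS at 4 h (-0.16 and -0.14, adjusted p = 0.000378 and 0.00297). Both calls were kept under every setting other than the fold limits. MCL1 was higher in H2O2 at each time, whereas BAX and BAK1 changed sides: BAX was lower in H2O2 at 4 and 8 h and higher at 24 h, and BAK1 was lower at 4 h and higher at 8 and 24 h. The 4 h calls for BAX and BAK1 were close to the limit. The BAX call at 4 h (-0.06, adjusted p = 0.0486) was lost without any H2O2 4 h library or NCS 4 h replicate 1 or 2, and the BAK1 call (-0.15, adjusted p = 0.0336) without any H2O2 4 h library or NCS 4 h replicate 1 or 3 (over all settings 0.0126 to 0.163 for BAX and 0.00191 to 0.107 for BAK1). The BCL2 call at 4 h (0.20, adjusted p = 0.0151) was lost without H2O2 4 h replicate 2 or 3 or NCS 4 h replicate 2 (up to 0.0962, against 0.00661 to 0.511 over all settings). BCL2L2 at 4 h (0.09, adjusted p = 0.0566) became a call without H2O2 4 h replicate 1 or NCS 4 h replicate 1 (0.0388 and 0.0402, against 0.0350 to 0.213). The same held with quantile normalization (0.0350), a filter at mean value 5 (0.0359), a fit of the compared groups only (0.0481) or a replicate block (0.0467). The number of genes called at 4 h was 3 without H2O2 4 h replicate 2 or replicate 3.

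**Figure D3:**
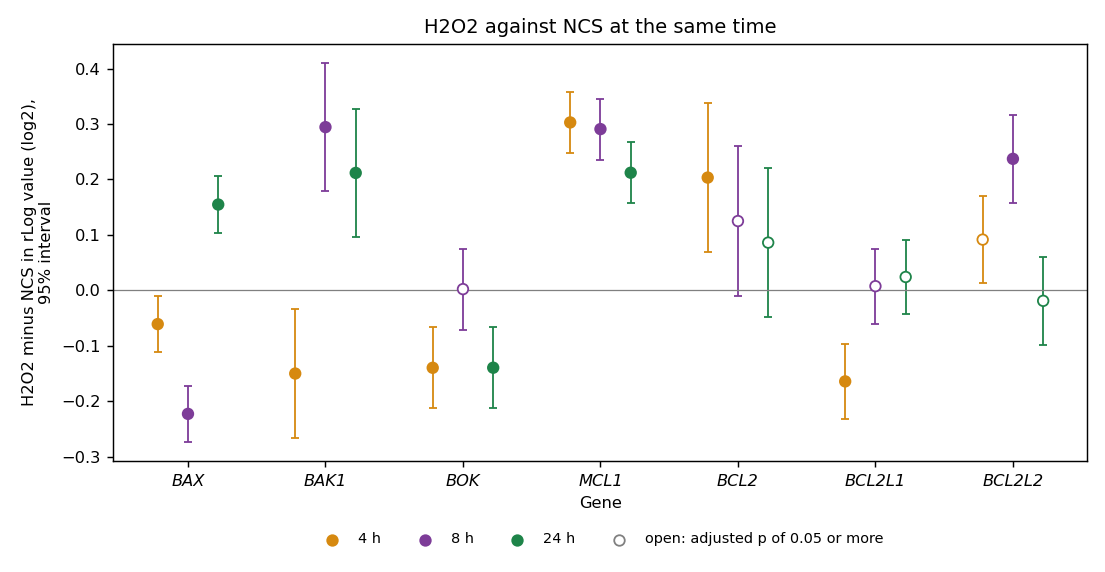
H2O2 minus NCS difference in rLog value (log2) at 4, 8 and 24 h for the 7 genes, with 95% intervals from limma and open points for an adjusted p of 0.05 or more. MCL1 lay above 0 at all 3 times (0.30, 0.29 and 0.21), BAX moved from -0.06 and -0.22 to 0.15, and BCL2L1 lay near 0 after 4 h.

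Whether the difference between the stresses itself moved was tested as an interaction. From 4 to 8 h it did so for 5 of 7 genes (32.7% of all genes) and from 4 to 24 h for 3 of 7 (39.4%). For BAK1 the H2O2 minus NCS difference grew by 0.44 to 8 h (SE 0.08, adjusted p = 0.000240) and by 0.36 to 24 h (SE 0.08, adjusted p = 0.00113). For BAX it fell by 0.16 to 8 h (SE 0.03, adjusted p = 0.00124) and at 24 h stood 0.22 above its 4 h value (SE 0.03, adjusted p = 6.38e-05). For BCL2L1 it grew by 0.17 and by 0.19 (SE 0.05; adjusted p = 0.00692 and 0.00286). The MCL1 difference moved by -0.01 from 4 to 8 h (95% interval -0.09 to 0.07) and by -0.09 to 24 h (-0.17 to -0.01, adjusted p = 0.0610). The latter became a call without NCS 4 h replicate 3 (0.0301, against 0.0150 to 0.652 over all settings). It was also called with aligned medians (0.0150), a filter at mean value 5 (0.0427), a fit of the compared groups only (0.0417) or a replicate block (0.0404). Without H2O2 8 h replicate 2 the moves to 8 h were 0.52 for BAK1, -0.15 for BAX, 0.22 for BCL2L1, 0.17 for BOK and 0.17 for BCL2L2, all still called, and 0.01 for MCL1 and -0.12 for BCL2, which were not.

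The other values that rest on H2O2 at 8 h were taken without its replicate 2 in the same way. Against untreated cells MCL1 was then higher by 0.32, BCL2L2 by 0.28, BCL2 lower at -0.21 (adjusted p = 0.0246) and BOK at 0.08 (adjusted p = 0.107). Against NCS at 8 h the differences were -0.21 for BAX, 0.37 for BAK1, 0.03 for BOK, 0.31 for MCL1, 0.27 for BCL2L2 and 0.09 for BCL2. The H2O2 steps from 4 to 8 h were 0.40 for BAK1, 0.35 for BCL2L1, -0.31 for BCL2, 0.07 for BOK, 0.02 for MCL1 and -0.02 for BAX. From 8 to 24 h they were -0.31 for BAK1, -0.31 for BOK, -0.21 for BCL2, 0.13 for BAX, -0.01 for MCL1 and -0.0013 for BCL2L1. Apart from the BCL2L2 steps given above, no call was gained or lost without this library.

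The steps within each treatment were also counted. In H2O2, 3 of 7 genes were called from 4 to 8 h (45.7% of all genes) and 4 of 7 from 8 to 24 h (42.6%). In NCS, 2 of 7 were called from 4 to 8 h (13.7% of all genes) and 6 of 7 from 8 to 24 h (29.9%). The latter count fell to 4 or 5 whichever of the compared libraries was left out. It was 4 with quantile normalization and 5 with aligned medians, no filter or no variance trend. The count stayed at 6 with a fit of the compared groups only or a replicate block. In the late NCS interval BAX, BAK1, BOK and BCL2 fell while MCL1 and BCL2L2 rose.

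Within a library, effector and guardian values can be set against each other without reference to other genes. The value of the guardian was subtracted from that of the effector, and the untreated mean was set to 0. These differences are described without a test. BAX minus MCL1 was -0.10 ± 0.03, -0.13 ± 0.07 and 0.0079 ± 0.0094 (SD, n = 3) in H2O2 at 4, 8 and 24 h. In NCS it was 0.27 ± 0.06, 0.38 ± 0.03 and 0.07 ± 0.06. The untreated libraries had an SD of 0.05 and ranged from -0.062 to 0.040. The BAX to MCL1 balance lay only just below them in H2O2 at 4 and 8 h (highest libraries -0.071 and -0.075). In NCS at the same times it lay well above them (lowest libraries 0.21 and 0.35). At 24 h both treatments overlapped untreated cells. Against BCL2L1 the picture was otherwise: BAX minus BCL2L1 was 0.24 ± 0.03, -0.09 ± 0.07 and 0.0093 ± 0.017 in H2O2, and 0.14 ± 0.02, 0.14 ± 0.03 and -0.12 ± 0.02 in NCS. Against the scarce BCL2, BAX reached 0.73 ± 0.02 in H2O2 and 0.66 ± 0.08 in NCS at 24 h.

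The same differences were taken for BAK1 after the BAX values had been seen. BAK1 minus MCL1 was -0.0023 ± 0.036, 0.33 ± 0.10 and 0.08 ± 0.04 in H2O2, and 0.45 ± 0.06, 0.32 ± 0.07 and 0.08 ± 0.08 in NCS, with an SD of 0.13 among untreated libraries. At 4 h the H2O2 group overlapped untreated cells and the NCS group did not, and at 8 h both treatments lay above them. BAK1 minus BCL2L1 was 0.34 ± 0.05, 0.37 ± 0.05 and 0.08 ± 0.03 in H2O2, and 0.32 ± 0.02, 0.08 ± 0.03 and -0.10 ± 0.04 in NCS. For PMAIP1, the BH3-only partner of MCL1, PMAIP1 minus MCL1 was 0.85 ± 0.10, 0.75 ± 0.14 and -0.09 ± 0.04 in H2O2 and 0.30 ± 0.02, 0.40 ± 0.09 and 0.04 ± 0.02 in NCS. At 24 h that difference overlapped untreated cells in both treatments.

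**Figure D4:**
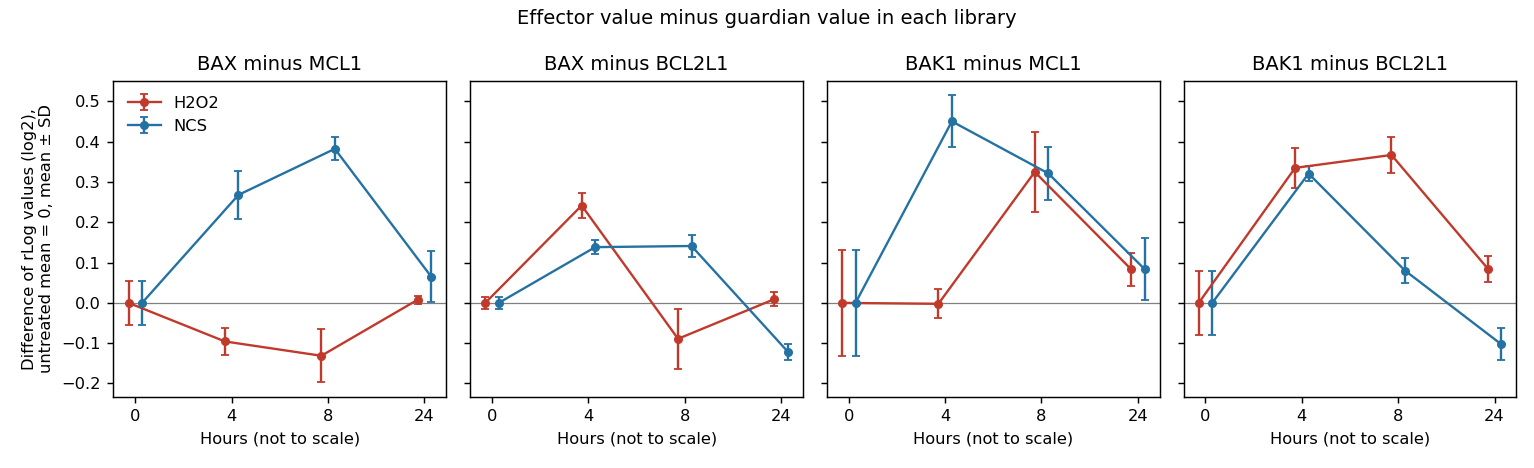
Effector minus guardian rLog value (log2) in each group, with the untreated mean set to 0, as the mean ± SD of 3 libraries in H2O2 (red) and NCS (blue) against hours (categories, not to scale). BAX minus MCL1 parted by treatment at 4 and 8 h, and at 24 h BAX minus BCL2L1 in NCS lay below the untreated libraries (-0.12).

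Other genes of the mitochondrial death pathway were counted from a list of 27, all of which were tested. Against untreated cells 11, 9 and 16 of the 27 were called in H2O2 at 4, 8 and 24 h (9, 6 and 10 higher, 2, 3 and 6 lower), or 40.7%, 33.3% and 59.3% of the list against 45.9%, 37.4% and 40.0% of all genes. In NCS 7, 9 and 12 were called (5, 6 and 6 higher, 2, 3 and 6 lower), or 25.9%, 33.3% and 44.4% against 17.2%, 23.9% and 38.0% of all genes. Their median differences lay between -0.00041 and 0.06 over these 6 comparisons, against -0.00034 to 0.0038 over all genes. Between the treatments 10, 11 and 8 were called at the same times, or 37.0%, 40.7% and 29.6% against 44.4%, 34.1% and 21.9% of all genes. Of the list, 3 genes exceeded 0.58 with an adjusted p under 0.05 in a comparison with untreated cells or between treatments. Taken singly, these comparisons passed 0.457% to 4.56% of all genes by the same rule. The share of all genes passing in at least 1 of them was not computed, so the 3 cannot be weighed against it.
The BH3-only gene BBC3 (PUMA), which frees the effectors by binding the guardians, stood at a mean of 7.41 in untreated cells and was higher by 1.56, 1.15 and 1.13 in H2O2 and by 1.45, 1.14 and 0.86 in NCS. PMAIP1 (10.10 in untreated cells) was higher by 1.15 and 1.04 in H2O2 at 4 and 8 h. BCL2L12, a BCL2 relative with a mean of 9.19 in untreated cells, fell at 24 h, by 0.72 after H2O2 and by 0.92 after NCS (adjusted p = 2.45e-09 and 7.74e-11). At 24 h the differences of BBC3 and BCL2L12 were thus larger in size than those of any of the 7 effectors and guardians.

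The 7 genes did not form one pattern across the libraries. Over the 21 libraries, which share their 7 groups, Pearson's r between BCL2 and BCL2L1 was -0.88, between MCL1 and BCL2L2 0.72, between BAX and BAK1 0.51, and between MCL1 and BAX 0.06. Among 11681 genes of mean value 5 or more, those whose values ran close to MCL1 included TSC22D3 (r = 0.976) and LONRF1 (0.968), and the 3 closest to BAK1 were RNF19B (0.971), KIAA0247 (0.939) and PGF (0.935). For BAX they were ARVCF (0.867), RGAG4 (0.865) and TRIP6 (0.863), and for BOK FSCN1 (0.926), SHPK (0.919) and CTPS (0.916). For BCL2L1 they were KDM4B (0.966), MAP1A (0.955) and ZBTB7B (0.954), and for BCL2 UBA2 (0.955), HNRNPU (0.955) and MATR3 (0.953). For BCL2L2 they were the ribosomal protein genes RPS3A (0.900), RPS27 (0.899) and RPS13 (0.895). These are likenesses over libraries that share treatments, chosen as the highest of many, and carry no test.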

How the data were processed

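RNA from 21 cultures of hTERT-HPNE cells was prepared with a TruSeq Stranded mRNA kit, per the labels. The submitters' processing notes name HISAT2, HTSeq, DESeq2 and the build hg19. Versions, gene annotation and the strand setting of counting are not given in the sources used here. The authors deposited 1 table of rLog values, which are log2 values after DESeq2 size-factor scaling and shrinkage, with 1 column per library. Counts were not used here, so a count model was not run.

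Of 23368 genes listed, 3674 were at 0 in every library, which left 19694 for the tests. Among the names were 28 that resemble dates and 2 listed more than once, none of them a gene reported here. One limma fit (limma 3.58.1, R 4.3.3, mean-variance trend) held all 7 groups and gave 15 comparisons, each adjusted by Benjamini-Hochberg over all tested genes but not across comparisons. A call is an adjusted p under 0.05 with no fold limit, since rLog shrinks differences. A fold is 2 to the power of an rLog difference and understates the change of scarce genes. Exact two-sided permutation tests over libraries were run beside it (smallest p 0.1).

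Groups came from the sample labels. The 7 genes, the list of 27 pathway genes, the marker lists and the motifs were chosen with earlier results of these data known. Pathway genes were named where the absolute difference was over 0.58 with an adjusted p under 0.05 against untreated cells or between treatments, and for each of the 7 the 3 genes of mean value 5 or more with the highest Pearson r were named, except 1 that is not reported here. Positions come from GENCODE 29 (GRCh38) by symbol and upstream sequence from RefSeq (GRCh38.p14), neither of which is the build of the deposited table. Python 3.11.15 with numpy 2.4.6, pandas 2.3.3 and matplotlib 3.10.9 was used. Alternatives were aligned medians, quantile normalization, a filter at mean value 5, no filter, fits of the compared groups only, no variance trend, a replicate block, fold limits of 0.58 and 1, and each library left out in turn.

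Whether the replicate number pairs libraries was checked from deviations from group means. Same-numbered libraries had a mean r of 0.0274 (63 pairs, -0.149 to 0.213) against -0.0137 for 126 pairs with different numbers. Deviations within a group sum to 0, so the second mean is largely set by the first and is no separate yardstick. The number was not used as a pairing in the fit reported, and a fit with it as a block was run beside it.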

Additional observations from a re-analysis of the deposited data

Results flagged for a closer look

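Of the 7 genes, 5 were singled out because their H2O2 minus NCS difference at 8 h was not that at 4 h, by an interaction term in limma. The same term was called for 32.7% of all tested genes. The difference moved by 0.44 for BAK1 (SE 0.08, adjusted p = 0.000240), -0.16 for BAX (SE 0.03, 0.00124), 0.17 for BCL2L1 (SE 0.05, 0.00692), 0.14 for BOK (SE 0.05, 0.0335) and 0.15 for BCL2L2 (SE 0.05, 0.0428). The BOK and BCL2L2 terms were the weakest of these. The BOK term was lost without H2O2 4 h replicate 2 or 3, H2O2 8 h replicate 3, NCS 4 h replicate 1 or 2, or NCS 8 h replicate 2 (adjusted p up to 0.0854, against 0.0154 to 0.116 over all settings). The BCL2L2 term was lost without H2O2 4 h replicate 1 or 3, H2O2 8 h replicate 1 or 3, NCS 4 h replicate 1 or 2, or NCS 8 h replicate 1 or 2 (up to 0.117, against 0.0149 to 0.117).

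From 4 to 24 h the difference moved by 0.36 for BAK1 (SE 0.08, adjusted p = 0.00113), 0.22 for BAX (SE 0.03, 6.38e-05) and 0.19 for BCL2L1 (SE 0.05, 0.00286). These 3 of 7 genes (42.9%) lie close to the 39.4% called among all tested genes. These 3 calls, and those of BAK1, BAX and BCL2L1 from 4 to 8 h, were kept whichever library was left out.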

How the results depend on the processing

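Of 105 tests of the 7 genes, 68 were calls. In the same 15 comparisons, 13.7% to 45.9% of all genes were called. BCL2 was not run under the filter at mean value 5, which its mean of 4.85 does not pass. Of the 68 calls, 56 were kept under every setting run other than the fold limits, including each library left out. The other 12 are BAK1, BAX, BCL2, BCL2L1, BCL2L2, BOK and MCL1 results named with their values above, and the BCL2 fall in H2O2 from 4 to 8 h, lost under quantile normalization (adjusted p = 0.0669, over all settings 0.000788 to 0.0669). No member passed a limit of 1 on the absolute log2 difference in any comparison (0 of 7 each), and at 0.58 the count was 1 in H2O2 at 8 h against untreated cells and 0 in the other 14. Results that became calls under a setting not named above were BCL2 between treatments at 8 h (adjusted p = 0.0435) and the BCL2L2 interaction to 24 h (0.0438) with aligned medians, BCL2L1 in H2O2 from 8 to 24 h with quantile normalization (0.00535), and BOK in NCS from 4 to 8 h with the filter at mean value 5 (0.0492). Over all settings they ranged from 0.0435 to 0.459, 0.0438 to 0.270, 0.00535 to 0.972 and 0.0492 to 0.260. With aligned medians 5 genes had a moved H2O2 minus NCS difference from 4 to 24 h (3 in the fit reported), and with quantile normalization or a fit of the compared groups only 3 had one from 4 to 8 h (5 in the fit reported); the cause was not tested. Leaving out 1 library gave 3 to 5 genes for H2O2 against NCS at 4 h, 3 to 5 for the interaction to 8 h (3 without H2O2 4 h replicate 3, H2O2 8 h replicate 3, NCS 4 h replicates 1 or 2, or NCS 8 h replicate 2), and 1 to 3 for NCS from 4 to 8 h (1 without NCS 8 h replicate 3). For NCS from 8 to 24 h it gave 4 to 5 genes (6 in the fit reported).

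With the replicate number as a block, 1 call was lost (BCL2 in H2O2 at 8 h, adjusted p = 0.0540) and 2 were gained (BCL2L2 between treatments at 4 h, 0.0467, and the MCL1 interaction to 24 h, 0.0404). The block moved no count of calls by more than 1, and 12 of 21 libraries correlated best with their own number. How many would do so without any pairing was not computed, so a weak pairing was not excluded.

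Values that turned sign were all small and uncalled. With aligned medians they were -0.0081 (BOK, H2O2 4 h against untreated), -0.018 (MCL1, NCS 8 h), -0.010 (BCL2L2, NCS 8 h), -0.0018 (BCL2L1, between treatments at 24 h), 0.013 and -0.0081 (MCL1, H2O2 steps), 0.011 (MCL1, interaction to 8 h) and -0.024 (BOK, interaction to 24 h). With quantile normalization they were -0.054 (BCL2, H2O2 4 h), -0.022 and -0.035 (BOK and BCL2L1, between treatments at 8 h), 0.024 (MCL1, H2O2 4 to 8 h), -0.011 (BCL2L1, NCS 8 to 24 h), 0.045 and 0.023 (BCL2, interactions to 8 and 24 h) and -0.0069 (BOK, interaction to 24 h).
With 1 library left out, ranges that crossed 0 were -0.021 to 0.039 (BOK, H2O2 4 h), -0.027 to 0.017 and -0.0096 to 0.029 (MCL1, NCS 4 and 8 h), -0.021 to 0.042 (BCL2L2, NCS 8 h), -5.3e-05 to 0.074 (BOK, H2O2 4 to 8 h), -0.019 to 0.022 and -0.014 to 0.027 (MCL1, H2O2 steps), -0.0013 to 0.080 (BCL2L1, H2O2 8 to 24 h), -0.0069 to 0.032 (MCL1, NCS 4 to 8 h), -0.047 to 0.027 and -0.023 to 0.058 (BOK and BCL2L1, between treatments at 8 h), -0.042 to 0.011 (BCL2L2, between treatments at 24 h), -0.032 to 0.011 (MCL1, interaction to 8 h) and -0.012 to 0.021 (BOK, interaction to 24 h).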
